A study of Mus musculus with 2 samples.

Results

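Auts2 is a very long gene of mouse chromosome 5 that encodes a nuclear protein of developing and adult neurons, and disruption of its human counterpart is linked to autism and intellectual disability. Its methylation was followed here over the mm9 interval chr5:131910000-133020000, which was set by gene name and position. The gene was chosen with earlier results of these data known. The interval spans 1110 kb. Of the 27435342 cytosines listed for the deeper library of the series, 12119 lay in it: 1632 in the CpG context, 8568 in CHG and 1919 in CHH (H stands for any base but G). CpH stands for CHG and CHH together. All had at most 100 reads. They carried 302657 read calls, with a highest depth of 46 reads.

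The series holds whole-genome bisulfite data of the dentate gyrus, micro-dissected from both sides of the hippocampus of male wild-type C57Black6 mice aged 8 to 10 weeks. There was 1 group of 2 libraries, which the design text calls biological replicates. The labels do not say how many animals each library came from. The dentate gyrus holds granule neurons beside interneurons and glia, so each level is an average over cell types. Bisulfite reads do not separate methylcytosine from hydroxymethylcytosine.

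In mammalian DNA most methylation sits at CpG, and short CpG stretches that stay unmethylated or partly methylated often mark promoters and enhancers. Mature neurons also build up methylation outside CpG, most of all at CA followed by C, which the methyltransferase DNMT3A lays down after birth. Long neuronal genes are known as places where this mark is studied. Auts2 is known to be transcribed from the high-coordinate end of the interval toward the low-coordinate end. The listed cytosines are all on the forward strand. No mm9 annotation was used, so exons, introns and the start site are not placed. By gene order in the RefSeq table of GRCm38.p6, the long non-coding RNAs Gm29681 and Gm40338 and then the glycosyltransferase gene Galnt17 follow on the low side. On the high side the next entry is the long non-coding RNA Gm36528, and a further one, 4930563F08Rik, lies within the span of Auts2.

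Nearly all of what follows rests on replicate 2, so the levels have no replicate check. Replicate 2 listed 791200717 read calls in all and replicate 1 listed 30594981, of which 558 fell in Auts2, at 25 cytosines. The lowest listed depth was 20 reads for CpG and CHG and 30 reads for CHH in replicate 2. The median depth in Auts2 was 22 reads for CpG, 23 for CHG and 32 for CHH. Failed conversion was read from mitochondrial CpH sites of replicate 2, which were at 0.368% (95% interval 0.365% to 0.370%).

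Over the whole gene, CpG methylation was lower and CpH methylation higher than in most of the genome. The CpG level of Auts2 was 74.3% (73.9% to 74.7%), against 79.0% on the 19 autosomes. The CHG level was 0.997% (0.954% to 1.04%), against 0.784%. The CHH level was 1.4% (1.31% to 1.5%), against 0.889%. Relative to the mitochondrial level, CHG in Auts2 was 2.71 times and CHH 3.82 times as high. On the autosomes CHG was 2.13 times and CHH 2.42 times as high as that level. When the autosomes were cut into windows as long as the gene, Auts2 stood at percentile 10.2 of 2175 windows for CpG, percentile 90.2 of 2181 for CHG and percentile 95.1 of 2182 for CHH. Thus 213 windows had a higher CHG level than Auts2 and 106 a higher CHH level.

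The 1 Mb flanks differed from each other more than from the genome. On the low side, toward Galnt17, the CpG level was 75.4% (74.8% to 76.0%), CHG 0.614% (0.573% to 0.658%) and CHH 0.662% (0.577% to 0.755%). On the high side, CpG was 80.9% (80.4% to 81.4%), CHG 0.898% (0.854% to 0.944%) and CHH 1.21% (1.12% to 1.30%). CpH in Auts2 was thus well above the low flank, by 0.383 points for CHG (two-sided Fisher's exact test of reads, adjusted p = 1.0e-32) and 0.743 points for CHH (adjusted p = 3.79e-26). Without sites at 30% or more the CHH difference was 0.444 points (Fisher's exact test, adjusted p = 1.21e-11).

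Against the high flank the CpH differences were small and did not hold throughout. CHG was higher in Auts2 by 0.0993 points (Fisher's exact test, adjusted p = 0.0026). With a high flank of 500 kb this was 0.0371 points (Fisher's exact test, adjusted p = 0.39), and with at least 30 reads per site it was -0.0278 points (adjusted p = 0.79). Against both flanks together CHG was 0.222 points higher (Fisher's exact test, adjusted p = 2.93e-16), and 0.136 points higher with at least 30 reads per site (adjusted p = 0.14). CHH was higher than in the high flank by 0.194 points (Fisher's exact test, adjusted p = 0.0045), and by 0.0929 points (adjusted p = 0.18) without the single 50 kb step of highest CHG level. Without sites at 30% or more it was higher by 0.00375 points (Fisher's exact test, adjusted p = 0.96). In CpG methylation Auts2 lay below the high flank, while its difference from the low flank changed sign with the setting. The difference of Auts2 from the high flank was -6.62 points (Fisher's exact test, adjusted p = 3.33e-84), and with at least 30 reads per site -13.5 points (adjusted p = 4.13e-30). From the low flank it was -1.07 points (Fisher's exact test, adjusted p = 0.0050), which turned to 0.639 points with flanks of 500 kb (adjusted p = 0.21). By the mean of site levels it was -0.617 points. With at least 30 reads per site it was -6.58 points (Fisher's exact test, adjusted p = 1.1e-05). These tests compare places within 1 library and take reads as independent. Levels varied between sites, a spread that the tests leave out, so their p-values are smaller than this spread allows.

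Listed sites were also denser in the gene than around it, save that CHH density was about level with the high flank. This is given because depth sets what is listed. Auts2 had 1.47 CpG, 7.72 CHG and 1.73 CHH sites per kb. The low flank had 0.898, 5.63 and 1.03, and the high flank had 1.08, 7.26 and 1.72. The part of this density in the differences was not tested.

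**Figure D1:**
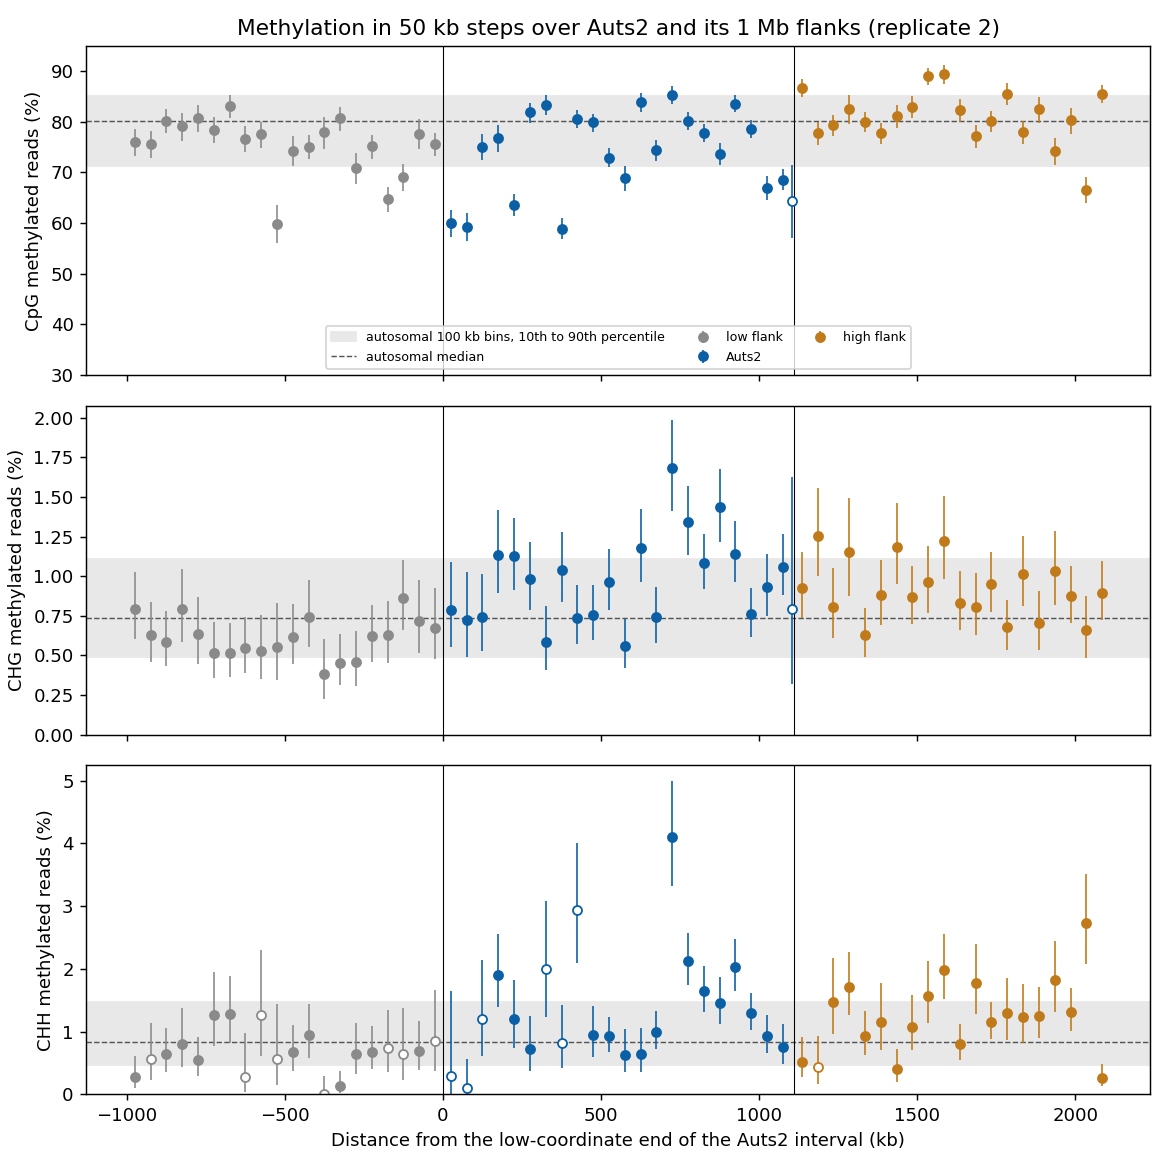
Percent of methylated reads by context in 50 kb steps against the distance from the low-coordinate end of the Auts2 interval in kb (replicate 2). Points are steps with 95% Clopper-Pearson bars, open points have too few sites for a percentile, vertical lines bound the gene, and the grey band and dashed line give the autosomal 100 kb bins. CHG in the gene ranges from 0.559% to 1.68% and peaks about 725 kb from its low end, while the low flank stays at or below 0.861%.

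Along the gene, levels were taken in 22 full steps of 50 kb, numbered from the low-coordinate end, and a last piece of 10 kb. CHG was high in most of them: 19 of 22 steps lay above the median of autosomal 100 kb bins (0.734%), where 50% of bins lie by definition. In the low flank 4 of 20 steps and in the high flank 16 of 20 did so. The 95% interval lay wholly above that median in 13 steps of Auts2 and wholly below it in 1. Above the 90th percentile of the bins (1.11%), past which 10.0% of bins lie, there were 7 steps, or 4 when set against bins of 50 kb. They were steps 4, 5, 13, 15, 16, 18 and 19. In the high flank 4 of 20 steps lay above that 90th percentile, and in the low flank 0 of 20. Those 4 high-flank steps stood at percentiles 90.1 to 93.4 of the 50 kb bins, so by that measure the high flank was much like Auts2. For CHH, 16 steps had enough sites, and 12 of them were above the autosomal median (0.833%) and 5 above the 90th percentile (1.47%). The high flank was not lower by this measure, with 15 of 19 steps above the median and 7 above the 90th percentile. Its median step was at 1.25% for CHH, against 1.09% in Auts2. In the low flank 3 of 12 steps were above the median and 0 above the 90th percentile. CpG in Auts2 went the other way, with 7 of 22 steps above the median (80.2%), 1 above the 90th percentile and 7 below the 10th (71.3%). Steps are stretches of 1 library and not replicates.

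The 3 highest CHG levels lay on the start-site side of the middle. The highest CHG level, 1.68% (1.41% to 1.99%), was in step 15 (chr5:132610000-132659999). It stood at percentile 99.2 of the autosomal bins. That step also had the highest CHH level of any step with enough sites, 4.10% (3.32% to 5.0%) over 68 sites, at percentile 99.9. Its CpG level was 85.3% (83.5% to 87.1%), the highest of the gene. Next came step 18 (chr5:132760000-132809999) with CHG at 1.44% (1.22% to 1.68%) and CHH at 1.46%. Step 16 (chr5:132660000-132709999) followed with CHG at 1.34% (1.14% to 1.57%) and CHH at 2.13% (1.74% to 2.56%). Steps 17 and 19, between and beside these, were at 1.08% and 1.14% for CHG and 1.65% and 2.02% for CHH. Steps 15 to 19, a block singled out after its values were seen, adjoin one another, and no single site carried more than 10.1% of the methylated CHG reads of any of them. For CHH that share was higher, and in step 15 1 site gave 20.4% of the methylated reads. In that step 3 called CHH sites, at 30.3% to 52.8%, lay within 19 bases and share reads. High CHH levels were also seen on the other side of the midpoint. Step 4 was at 1.91% (1.38% to 2.56%), at percentile 96.4. Step 9 was at 2.94% (2.09% to 4.01%), on 40 sites, too few for a percentile. In both, 1 site gave over 30% of the methylated CHH reads.

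The lowest CHG levels lay elsewhere. Step 12 (chr5:132460000-132509999) was at 0.559% (0.420% to 0.728%), with CHH at 0.633%. It was the 1 step whose CHG interval fell below the autosomal median. Step 7 (chr5:132210000-132259999) was at 0.584% (0.407% to 0.812%). Its CHH level of 2.0% rested on 32 sites, too few for a percentile, and 1 site gave 80% of its methylated CHH reads. Step 2 (chr5:131960000-132009999) was at 0.722% (0.491% to 1.02%). Only 1 methylated read among 978 was seen at its 30 CHH sites, a level of 0.102% (0.00259% to 0.568%). The last 10 kb of the interval, at the start-site end, listed 8 CpG, 39 CHG and 0 CHH sites, too few for a percentile. The 2 full steps next to it, 21 and 22, were at 67.0% and 68.6% for CpG and 0.929% and 1.06% for CHG.

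Split at the midpoint, the high-coordinate section of Auts2 was more methylated than the low-coordinate section in each context. CpG was at 76.5% (75.9% to 77.1%) against 71.9% (71.3% to 72.6%). CHG was at 1.07% (1.02% to 1.13%) against 0.889% (0.826% to 0.955%), and CHH at 1.5% (1.39% to 1.62%) against 1.19% (1.04% to 1.36%). The intervals of the sections did not overlap in any context, but they cover counting error only and leave out the spread between sites. Without step 15 the difference was 3.81 points for CpG (2.91 to 4.71) and 0.141 points for CHG (0.0534 to 0.228). For CHH it was 0.162 points, with an interval of -0.0288 to 0.352 that contains 0, against 0.305 points with that step.

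**Figure D2:**
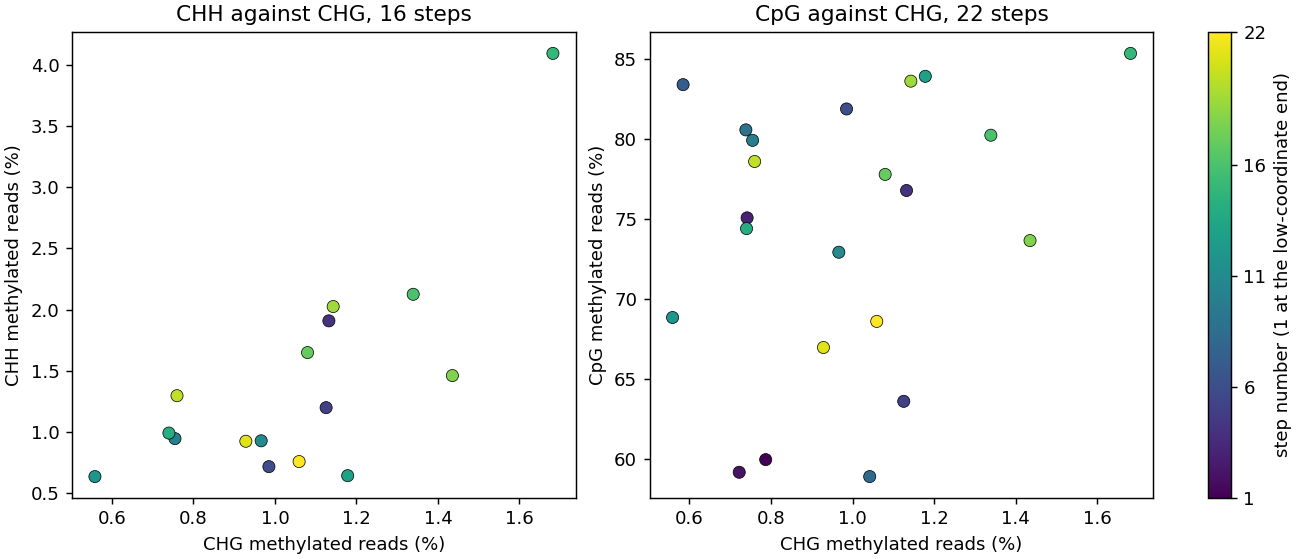
CHH level (left, 16 steps) and CpG level (right, 22 steps) of the full 50 kb steps of Auts2 against their CHG level, all in percent of methylated reads in replicate 2, coloured by step number. Step 15 is the point at 1.68% CHG in both panels, and the lowest CpG levels, near 59%, are at CHG levels between 0.722% and 1.04%.

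Across the steps, CHG and CHH tended to go together, with a Spearman's rho of 0.59 and a Pearson's r of 0.74 over 16 steps. Without step 15 these were 0.51 and 0.55, and in 100 kb steps the rho was 0.24 over 10. For CHG and CpG the rho was 0.27 over 22 steps, 0.16 without step 15 and 0.28 over 11 steps of 100 kb. The steps share a library and its depth, so these values only describe the plot of levels by step.

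CpH levels also differed by the neighbouring bases. With no genome sequence, neighbours were read from the list itself: a base counts as cytosine where it is listed. A CHG site followed by a listed CpG is CCG. A CHH site with only the base after next listed is CAC or CTC, unless its next base is a cytosine below the depth minimum. In Auts2 the CHH sites with only the base after next listed were at 3.72% (3.38% to 4.07%), over 364 sites. Those with neither base listed were at 1.10% (0.993% to 1.21%), over 1100 sites. Those followed directly by a listed cytosine were at 0.303% (0.221% to 0.406%), over 455 sites, an interval that contains the mitochondrial level. The first class made up 19% of CHH sites and held 50% of the methylated CHH reads. On the autosomes it held 38.0%, with 16.3% of the sites.

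**Figure D3:**
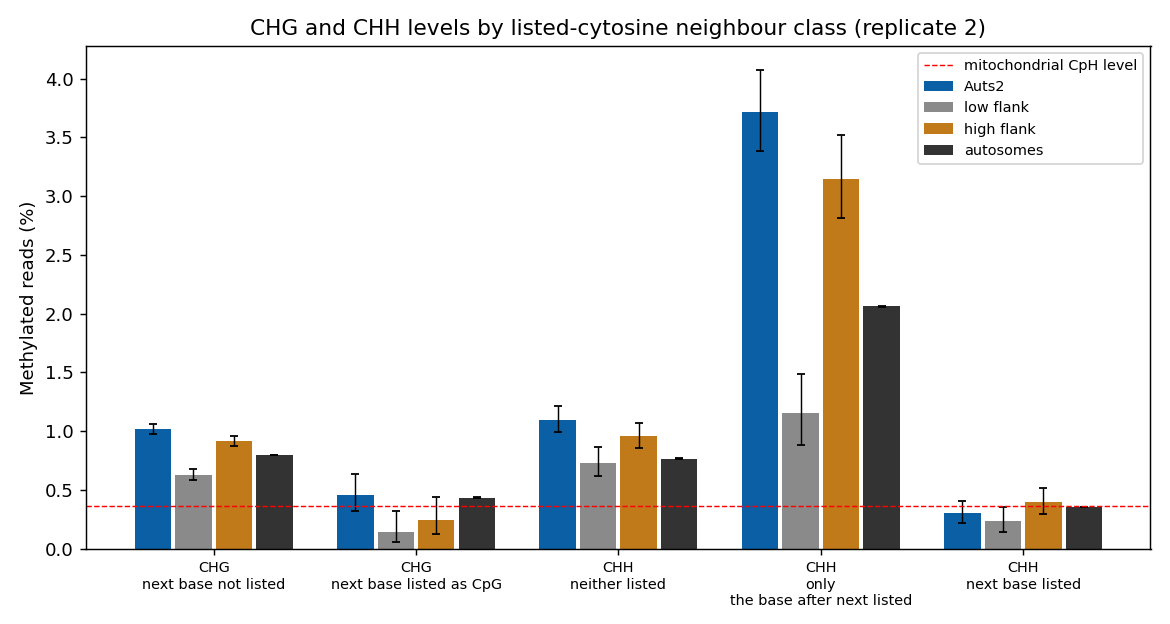
Percent of methylated reads in 5 classes of CHG and CHH sites in Auts2, its 1 Mb flanks and the autosomes (replicate 2), with 95% Clopper-Pearson bars and the mitochondrial CpH level as a dashed line. The class with only the base after next listed reaches 3.72% in Auts2 and 1.16% in the low flank, and the class followed directly by a listed cytosine stays between 0.232% and 0.396% in all 4 places.

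The difference of Auts2 from its flanks was not alike in the classes. For CHH with only the base after next listed, Auts2 was 1.26 points above the 2 flanks together, 3.72% against 2.46% (Fisher's exact test, adjusted p = 5.34e-09). The flanks themselves were at 1.16% (low) and 3.15% (high), and the autosomes at 2.06%. Without sites at 30% or more the difference was 0.147 points (Fisher's exact test, adjusted p = 0.49), so the call rests on those sites. Without step 15 it was 0.826 points (Fisher's exact test, adjusted p = 0.00011). For CHH with neither base listed the difference was 0.221 points (Fisher's exact test, adjusted p = 0.0017). For CHH followed directly by a listed cytosine, Auts2 was at 0.303% and the flanks at 0.329%, a difference of -0.0253 points with an interval of -0.142 to 0.0912 (Fisher's exact test, adjusted p = 0.71). It was 0.0671 points with flanks of 500 kb.

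CHG sites not followed by a listed base were at 1.02% in Auts2 and 0.792% in the flanks (Fisher's exact test, adjusted p = 3.75e-16). With at least 30 reads per site this difference was 0.142 points (Fisher's exact test, adjusted p = 0.13). CHG sites followed by a listed CpG were at 0.455% (0.317% to 0.632%) in Auts2, on 35 methylated reads at 328 sites. The autosomes were at 0.432% in that class and the flanks at 0.198%. The difference from the flanks, 0.257 points (Fisher's exact test, adjusted p = 0.0053), was 0.127 points with 2 Mb flanks (adjusted p = 0.15) and 0.212 points with at least 30 reads per site (adjusted p = 0.74).

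Single cytosines were then called methylated against the mitochondrial level. In Auts2, 175 of 8568 CHG sites were called, or 2.04% (1.75% to 2.36%), against 1.46% of autosomal CHG sites. Of 1919 CHH sites 79 were called, or 4.12% (3.27% to 5.10%), against 2.75% on the autosomes. The high flank was close, at 1.79% and 4.12%, and the low flank lower, at 0.870% and 1.95%. With a background rate of 1%, 95 CHG sites were called, or 1.11% against 0.673% on the autosomes, and 45 CHH sites, or 2.34% against 1.16%. Called sites were partly methylated, with a median of 18.2% at CHG and 16.1% at CHH, and a call needed at least 3 methylated reads. They held 40.5% of the methylated CHG reads and 58.1% of the methylated CHH reads, while 88.1% of CHG and 82.8% of CHH sites had no methylated read. At these depths a level of a few percent at 1 site was not detectable. For CpG 1606 of 1632 sites were called, or 98.4%, near the 97.5% of the autosomes.

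The strongest CpH sites were methylated in about the same share of reads as many partly methylated CpGs. The 5 CHH sites of lowest p were all in the class with only the base after next listed. The CHH cytosine at position 132635783, in step 15, was methylated in 19 of 36 reads, or 52.8% (35.5% to 69.6%; exact binomial test, adjusted p = 1.91e-33). The others were at 132841676 (17 of 32 reads), 132708688 (17 of 34), 132846821 (16 of 31) and 132252839 (16 of 32). The CHG cytosine of lowest p, at position 132846899 in step 19, was methylated in 14 of 35 reads, or 40% (23.9% to 57.9%; exact binomial test, adjusted p = 1.89e-21). Next were 132692636 (11 of 20 reads), 132846859 (10 of 25), 132641498 (10 of 28) and 132810448 (10 of 28). Of these 10 sites, 9 lie in steps 15, 16 or 19 and 1 in step 7. Their reads are part of the levels of those steps, so this placing is not separate support for high levels there. Of the called sites by class, 46 of 364 CHH sites with only the base after next listed were called, or 12.6%, against 7.70% on the autosomes. Of CHG sites followed by a listed CpG 0 of 328 were called, which allows a share of up to 0.915%, against 0.456% on the autosomes.

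Auts2 had many CpGs at middle levels. Sites above 20% and at most 60% made up 19.2% of its CpGs, against 12.4% on the autosomes, 17.9% in the low flank and 11.3% in the high flank. This share stood at percentile 97.9 of the 2175 windows as long as the gene, whose median was 12.1%. Sites at 20% or less made up 6.80%, against 5.40% on the autosomes. The median CpG site was still at 86.0%, against 88.5%.

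Unmethylated runs, defined as at least 5 successive listed CpGs at 20% or less with no gap over 1 kb, numbered 3 in Auts2. The first, at chr5:131934249-131934296, had 5 CpGs and 17 of 149 reads methylated, a level of 11.4% (6.79% to 17.6%). The second, at chr5:132121484-132121574, also had 5 CpGs and was at 10.8% (5.71% to 18.1%), on 111 reads. The third, at chr5:132295423-132295535, had 6 CpGs and was at 8.62% (4.91% to 13.8%), on 174 reads. All 3 lay in the low-coordinate section, away from the start-site end. The last 10 kb at that end listed only 8 CpGs, so an unmethylated stretch there could have been missed. Each was short, at 48, 91 and 113 bases, where autosomal runs had a median length of 441 bases. The low flank had 0 such runs and the high flank 1, of 513 bases. Per 1000 listed CpGs, Auts2 had 1.84 runs and the autosomes 1.70.

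CpGs near the runs were also below the level of the gene. Within 1 kb of the third run, the other 17 CpGs were at 40.5%, and within 5 kb 28 CpGs were at 58.3%. Around the first run the 6 CpGs within 1 kb were at 49.7%. The steps that hold the runs, 1, 5 and 8, had CpG levels of 60%, 63.6% and 58.9%. With step 2, at 59.2%, they were the 4 lowest of the 22 full steps. These levels include the runs' own CpGs, and without them steps 1, 5 and 8 were at 65.8%, 67.0% and 63.0%, where step 5 was level with step 21. Steps 1, 2 and 8 lay between percentiles 1.03 and 1.23 of the autosomal 100 kb bins, and between 1.97 and 2.29 of 50 kb bins. The low flank also held such a step, its step 10, at 59.9% and percentile 1.22 of the 100 kb bins. The naming of steps 1, 2 and 8 followed from their values. CHG was not low in step 8, at 1.04% (0.839% to 1.28%). Inside the runs CpH coverage was thin. In the first, 0 of 184 CpH reads were methylated, which allows a share of up to 1.63%. In the second 5 of 185 and in the third 3 of 141 CpH reads were methylated.

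**Figure D4:**
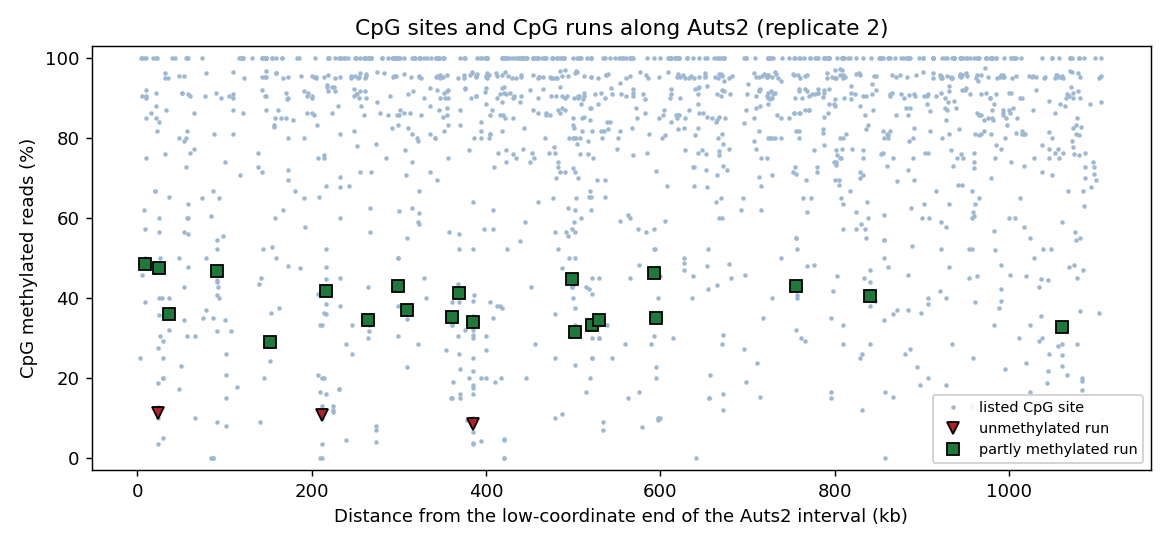
Methylation level of each listed CpG site of Auts2 (dots, percent of reads) against the distance from the low-coordinate end in kb, with the level of each unmethylated run (triangles) and partly methylated run (squares), replicate 2. The 3 unmethylated runs and 16 of the 21 partly methylated runs lie in the low-coordinate section.

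Partly methylated runs, of at least 3 successive CpGs above 20% and at most 60%, were frequent. Auts2 held 21 and each flank 8. Per 1000 listed CpGs this was 12.9 in Auts2, 8.91 in the low flank, 7.39 in the high flank and 5.64 on the autosomes. The rate stood at percentile 98.4 of the windows as long as the gene. Runs also need listed sites close together, and the gene had more listed CpGs than percentile 82.8 of those windows. With at least 5 CpGs per run, Auts2 held 6, the low flank 0 and the high flank 1.

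These runs were unevenly placed: 16 began in the low-coordinate section, with 790 listed CpGs, and 5 in the high-coordinate section, with 842. Their levels ranged from 29.1% to 48.5%, with a median of 36.9%. The longest, at chr5:132277597-132279575 in step 8, spanned 1979 bases and 8 CpGs at 41.3% (34.1% to 48.8%). The next were chr5:132062048-132063006, with 3 CpGs at 29.1% (19.4% to 40.4%), and chr5:132504977-132505931, with 3 CpGs at 34.9% (23.3% to 48.0%). A further run, at chr5:132295024-132295376 with 7 CpGs at 34.1% (27.1% to 41.6%), lies next to the third unmethylated run and was singled out after its values were seen. CHG sites inside the 21 runs were at 0.561% (0.338% to 0.875%), on 19 methylated reads at 142 sites, below the 0.997% of the whole gene.

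Replicate 1 listed too few sites to repeat any of this. Its 25 sites in Auts2 were 1 CpG, 12 CHG and 12 CHH, and 13 of them were listed in replicate 2 as well. At the CpG at position 132993845, replicate 1 had 11 methylated among 27 reads, and replicate 2 had 7 among 41. At the CHG sites 2 of 263 reads were methylated, 0.760% (0.0922% to 2.72%), and at the CHH sites 1 of 268, 0.373% (0.00945% to 2.06%). These CHG and CHH intervals are wide and contain the whole-gene levels of replicate 2. The interval of the 1 CpG, 40.7% (22.4% to 61.2%), contains neither the 17.1% of replicate 2 at that site nor its 74.3% in the gene.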

How the data were processed

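Bisulfite reads of dentate gyrus DNA were handled with Bismark 0.7.5 against build mm9, per the submitters' processing notes. Whether reads were trimmed or duplicates removed was not given in the sources used here. For each library and context the authors deposited 3 read counts per cytosine (methylated, unmethylated, both) and the methylated percent. In all 6 tables the counts summed to the total and the percent was recovered to within 1e-06. The listed cytosines lie on 1 strand, read 5′ to 3′ by increasing position: 19.98% of CpG sites had a listed CHG just before them and 0 had a listed cytosine just after.

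Sites of at most 100 reads in chr5:131910000-133020000 were taken from replicate 2. Levels were computed as methylated over all reads, with exact Clopper-Pearson 95% intervals that cover counting error only, since reads from PCR carry no molecular identifiers and may repeat a molecule. Two-sided Fisher's exact tests of reads, gene against flanks, were adjusted by Benjamini-Hochberg over 14 tests. Single sites were called by a one-sided exact binomial test against the mitochondrial CpH level, adjusted over all nuclear sites of a context at 0.01. A step or bin needed 20 CpG sites or 50 CHG or CHH sites. A window as long as the gene needed 200 CpG, 1000 CHG or 200 CHH sites. Where a share was 0, its limit is 3 counts of the total. Spiked-in lambda DNA was not analysed here. The tests were checked on simulated data, where the counts for Fisher's exact test had no spread of levels between sites. Python 3.11.15 with scipy 1.17.1 was used.

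By the rule for named items, the text names the 3 highest and 3 lowest full steps by CHG level, each unmethylated run, the 3 longest partly methylated runs and the 5 CHG and 5 CHH sites of lowest p. The gene, the lists and the rules were chosen with earlier results of these data known. Alternatives covered depth limits, weighting, flank width, bin width, background rate and run definitions. The RefSeq gene table (GRCm38.p6) matched Auts2 and was used for names and gene order only.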

Additional observations from a re-analysis of the deposited data

How the results depend on the processing

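Of 172 recomputed values, 131 were labelled as unchanged. Some of these could not change. In replicate 2 CHH sites were listed only from 30 reads, so a minimum of 30 reads left every CHH value as it was. No site in Auts2 had over 100 reads, so lifting the upper limit left its levels as they were. Levels, and differences by site means or between the sections, had to stay within the stated interval. Other differences had to keep their direction and side of the threshold. Counts had only to stay within a set ratio of the main count, and correlations within a set margin. The sites at 30% or more, the step left out and the high-coordinate section alone were alternatives chosen after the data were seen. With at least 30 reads per site the CpG level was 68.0%, CHG 0.902% and CHG not followed by a listed base 0.923%. CHG then exceeded both flanks by 0.136 points (Fisher's exact test, adjusted p = 0.14) and the high flank by -0.0278 points. The high-coordinate section exceeded the low one by 8.99 points (CpG) and 0.322 (CHG), calls numbered 106 of 106 CpG (autosomes 98.7%) and 16 of 655 CHG (2.44%, autosomes 1.93%), and 2 of 3 steps were above the CHG median and 0 above the 90th percentile. No step kept enough CpG sites. Fewer sites enter there by construction. Subtracting the mitochondrial level gave 0.630% (CHG) and 1.04% (CHH). Without sites at 30% or more, CHG was 0.923% (0.941% where not followed by a listed base), CHH 1.11% (2.27% with only the base after next listed), and CHH exceeded the high flank by 0.00375 points. Flanks of 500 kb gave 0.639 points for CpG against the low flank, 0.0371 for CHG against the high flank and 0.0671 for CHH followed by a listed base. The high-coordinate section alone gave 1.10 and 0.0408 points for the first and last of these. Without step 15 CHH exceeded the high flank by 0.0929 points. Bins of 50 kb left 4 steps above the CHG and 0 above the CpG 90th percentile. A background rate of 1% gave 95 CHG calls (1.11%, autosomes 0.673%) and 45 CHH calls (2.34%, autosomes 1.16%). Unmethylated runs numbered 1 at 10% or less, 8 with at least 3 sites and 0 with at least 10, and partly methylated runs 6 with at least 5. In 100 kb steps rho was 0.24 (CHG, CHH) and 0.70 (CHH, CpG), against 0.59 and 0.36. Leaving out replicate 2 left 40.7% (CpG), 0.760% (CHG) and 0.373% (CHH) from 25 sites. Where not given, the cause was not tested. No paired analysis was possible because there is no second group.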

Other observations

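The spacing of called CpH sites in Auts2 was described after the data were seen. Of the 254 called CpH sites, 29 lay in 9 groups of at least 3 called sites with gaps of at most 100 bases. This is 11.4% (7.78% to 16%), an interval that contains the 8.94% of the autosomes and the 8.46% of the high flank. In the low flank 3 of 69 were so grouped. The largest group, chr5:132846821-132846910 in step 19, held 5 called sites among 16 listed CpH sites, with levels from 17.1% to 51.6%, and the 4 CpGs in and near it were at 100%. In step 15, chr5:132635765-132635783 held 3 called CHH sites between 30.3% and 52.8% within 19 bases. Of the 9 groups, 8 lay in steps 15 to 19 and 1 in step 11. Sites this close share reads, so a group is not a set of independent observations. Steps 15 to 19 also held many of the called sites, with 14, 18, 14, 15 and 12 for CHG and 9, 9, 7, 6 and 9 for CHH. These sites are part of the levels for which the block was singled out, so the placing of the groups is not separate support.

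CpG levels in Auts2 varied with depth. They were 77.0% at 20 to 24 reads, 69.7% at 25 to 29 and 66.5% at 30 to 34, over 1149, 377 and 92 sites. Autosomal CpGs at those depths were at 78.7%, 79.5% and 80.2%. The fall did not go on at 35 to 100 reads, where 14 CpGs of Auts2 were at 76.8% (72.9% to 80.4%). Autosomal CpGs of that depth were at 78.8%. The cause was not tested.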
